A study of Mus musculus with 47 samples.

Results

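The genes described here encode the trains, motors and cargo adaptors of the primary cilium: 38 genes of intraflagellar transport (IFT) and of the BBSome, measured among 57180 genes in mouse retina. They were taken by name, as 13 genes of the IFT-B complex, 7 of the IFT-A complex with its adaptor Tulp3, 5 motor subunits, 8 BBSome subunits and 5 genes for BBSome assembly and recruitment. All 38 were found and all 38 were among the 15321 genes that passed the filter on low values, which asked for at least 0.5 RPKM (reads per kilobase of exon, scaled to the library total) in at least 12 libraries. Polyadenylated RNA of whole retinas was sequenced from C57BL/6 mice, an inbred laboratory strain with no transgene named, either 20 months old (aged) or 6 weeks old (young). Both ages lived in 12 h of light and 12 h of darkness, and retinas were taken at 6 zeitgeber times (ZT, hours after lights on) spaced 4 h apart. Aged ZT2, ZT6, ZT10, ZT14 and ZT22 had 4 libraries each and aged ZT18 had 3, which gave 23 aged libraries, and young mice had 4 libraries at each time, which gave 24. The labels name 4 mice per age and time with the right eye of each mouse, and the 2 ages were compared over all times, at each time and in their daily rhythms.

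A primary cilium is built and kept by IFT trains that carry proteins along its microtubules. Kinesin-II motors move trains with IFT-B outward to the tip, and dynein-2 with IFT-A brings them back to the base. The BBSome is a coat-like adaptor that rides on these trains and takes membrane proteins out of the cilium. In the retina the light-sensing outer segment of rods and cones is a modified cilium, and loss of many of these genes in mice or humans leads to photoreceptor degeneration.

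The promoter sequences of 34 members were in the RefSeq table used here (35 windows, GRCm38.p6, each with 250 bases before the start of the gene and 50 after it), and Dync2li1, Ift122, Ift80 and Ift81 had none. They were searched for the X-box, the site of RFX transcription factors known from ciliary genes, as GTTNCC and GGNAAC spaced by 0 to 3 bases on either strand. It stood in 3 windows of members (8.57%) and in 264 of all 32851 windows (0.804%). A single arm, GTTGCC or GGCAAC, which can be part of the full site, stood in 14 member windows (40%) and in 12.5% of all windows. 1 full site of each window is shown 5′ to 3′ with the matched bases in capitals, for Bbs7 (BBSome subunit, chr3:36613477-36613530, minus strand), Ift57 (IFT-B, chr16:49699214-49699266, plus strand) and Lztfl1 (BBSome regulator, chr9:123717755-123717809, minus strand). The window of Lztfl1 held another full site, GTTCCCATTGGCAAC, 6 bases past the start of the gene, which is not among the stretches shown.
Bbs7: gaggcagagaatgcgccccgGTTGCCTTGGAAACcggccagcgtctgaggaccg
Ift57: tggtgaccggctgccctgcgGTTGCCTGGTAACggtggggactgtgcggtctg
Lztfl1: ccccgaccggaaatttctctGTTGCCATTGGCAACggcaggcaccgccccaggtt

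The 3 BBSome genes with the smallest adjusted p for age, Bbs7, Bbs4 and Bbs1, are shown with the 250 bases before their start sites, all on the minus strand of GRCm38.p6, since the first 2 were higher and the third lower in aged retinas. The stretches are chr3:36613390-36613639 for Bbs7, chr9:59353509-59353758 for Bbs4 and chr19:4906628-4906877 for Bbs1. Capitals mark the X-box and an E-box, CACGTG, a site read by clock factors among others, which was looked for after the data were seen. The E-box stood in the windows of 3 members, Bbs7, Lztfl1 and Wdr19 (8.57% of member windows), and in 7.15% of all windows. The stretches of Bbs4 and Bbs1 held none of these letters, and the single arm counted for Bbs1 lies after its start site. These matches describe the letters in the windows and are no evidence of binding.
Bbs7: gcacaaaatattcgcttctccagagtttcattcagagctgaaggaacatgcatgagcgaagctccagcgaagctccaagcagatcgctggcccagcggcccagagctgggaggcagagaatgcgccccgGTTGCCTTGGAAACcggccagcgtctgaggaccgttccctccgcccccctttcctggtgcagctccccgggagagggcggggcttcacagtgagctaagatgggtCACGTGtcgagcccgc
Bbs4: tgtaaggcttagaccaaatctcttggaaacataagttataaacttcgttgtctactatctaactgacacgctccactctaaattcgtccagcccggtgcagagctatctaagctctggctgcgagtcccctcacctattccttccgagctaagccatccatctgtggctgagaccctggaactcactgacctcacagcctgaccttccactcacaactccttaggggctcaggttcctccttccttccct
Bbs1: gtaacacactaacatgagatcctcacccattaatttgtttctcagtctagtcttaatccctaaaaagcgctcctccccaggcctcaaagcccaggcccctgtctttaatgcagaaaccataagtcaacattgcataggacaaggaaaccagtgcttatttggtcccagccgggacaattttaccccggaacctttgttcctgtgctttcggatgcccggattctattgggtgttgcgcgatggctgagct

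The sequenced library totals, recovered from the values, ran from 32 M up to 55.5 M reads, with medians of 37.0 M in aged and 37.2 M in young libraries, and the lowest read number of any member in any library was 82, for Kif17. Of the cell type markers, none of 17 rod, 12 cone, 10 bipolar or 10 Müller glia genes differed with age (limma, adjusted p under 0.05; 1, 2, 1 and 0 at an unadjusted p under 0.05), and all of them were above 0 in all 47 libraries. The next paragraph describes a pair of outlying libraries. Without this pair 5 of 10 bipolar genes, 1 cone gene and 1 Müller glia gene were lower in aged retinas. In the same fit 1 cone gene was higher and no rod gene passed (background 9.29% of tested genes lower and 7.24% higher). At an unadjusted p under 0.05 there were then 8 of 10 bipolar genes, all lower, where 31.7% of tested genes were. This limit was also met by 4 rod genes (0 lower), 4 cone genes (3 lower) and 2 Müller glia genes (2 lower). The summed level of the rod genes had a median of 28146 RPKM (22804 to 40151) in aged and 30593 RPKM (23583 to 44565) in young libraries. That of the bipolar genes was 155 RPKM (95.9 to 238) in aged and 189 RPKM (39.9 to 283) in young libraries. For cone genes the medians in aged and young were 738 and 780 RPKM, and for Müller glia genes 924 and 917 RPKM. In whole tissue, fewer cells of a type and less RNA per cell cannot be told apart. Lens genes can be a sign of tissue carried over at dissection, which was not tested here. Of 13 such genes 3 were lower in aged libraries, Crygb, Crygc and Crygd. The summed level of lens genes was 134 RPKM (3.02 to 1855) in aged and 253 RPKM (1.49 to 2502) in young as median and range. Of 8 pigment epithelium genes 1 was higher in aged libraries, with sums of 38.4 RPKM (16.9 to 202) in aged and 28.5 RPKM (12.8 to 112) in young. Without the pair 3 of the 8 were higher (limma; 7.24% of all tested genes were). At an unadjusted p under 0.05 there were 4 of the 8 with all libraries and 5 without the pair. Of all tested genes 15.7 and 31.7% were under this limit in the same order. In some libraries 9 of 14 lens genes and 2 of 11 pigment epithelium genes were listed at 0. Of 12 genes of motile cilia, which retinal neurons lack, 4 passed the filter and none differed with age (limma; 3 at an unadjusted p under 0.05; 2 lower in aged without the pair). Their summed level stayed between 3.27 and 6.02 RPKM in aged and between 4.19 and 6.92 RPKM in young libraries. The part of these markers in the differences given next was not tested.

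A pair of libraries stood apart from the others of their groups in the members as in the whole table. In aged ZT6 replicate 3, 12 of 38 members were over 0.5 log2 units away from the mean of the other libraries of that group, 7 above and 5 below, and 51.4% of tested genes were. In young ZT10 replicate 4 this held for 18 members, 8 above and 10 below, and for 62.0% of tested genes. The other 45 libraries had 0 to 4 such members. Ift74, an IFT-B subunit, was at 31.4 RPKM in aged ZT6 replicate 3, against 13.3, 13.0 and 13.5 RPKM in the other libraries of that group. In young ZT10 replicate 4 the 19 members with shorter exons had a median deviation of 0.30 and the 19 with longer exons one of -0.37 (log2 units), and in the other 45 libraries these medians lay between -0.18 and 0.21 and between -0.12 and 0.16. All tested genes, split at their own median exon length, had medians of -0.058 (shorter) and -0.607 (longer) in young ZT10 replicate 4. In aged ZT6 replicate 3 these were -0.502 and -0.041, and those of the shorter and longer members were -0.057 and 0.070. The split seen in the members was thus not that of the whole table. Counts of called members that follow are given with all libraries and, where they differ, without this pair.

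**Figure D1:**
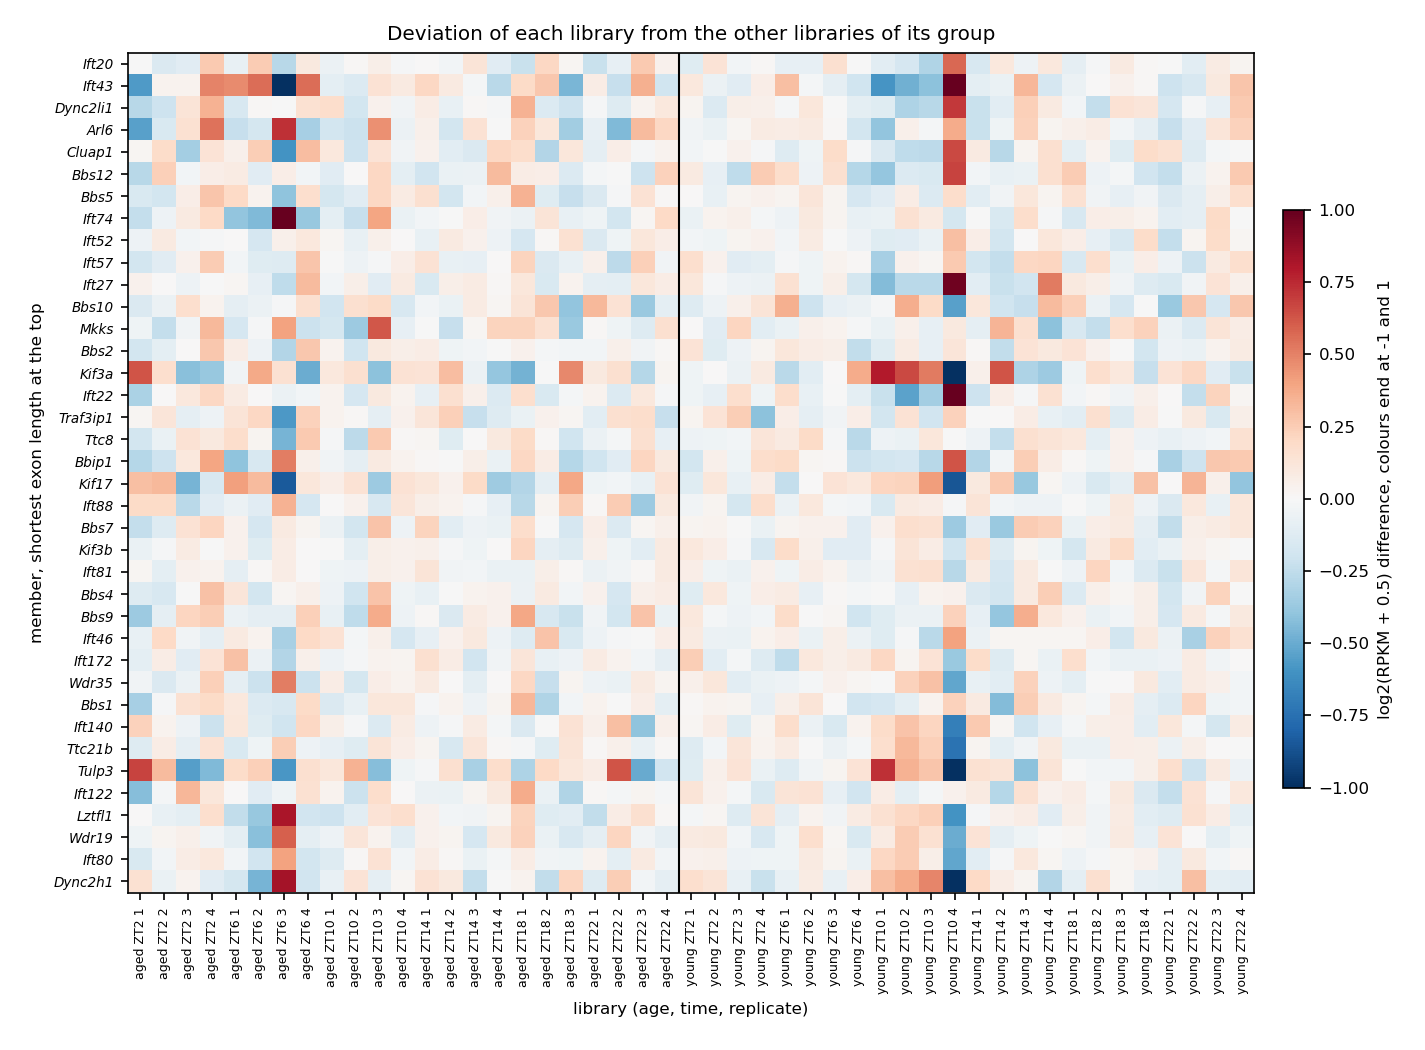
Colours show, for each member (rows, shortest exon length at the top) and library (columns, 23 aged left of the line and 24 young right of it), the difference in log2(RPKM + 0.5) from the mean of the other libraries of the same age and time. The columns of aged ZT6 replicate 3, with 12 members over 0.5, and of young ZT10 replicate 4, with 18, stand out from the other 45, which have 0 to 4.

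The members spanned from 1.14 to 89.6 RPKM, and the BBSome had the highest median of the 5 groups. Its 8 subunits had a median level of 26.9 RPKM over all libraries, between Bbip1 at 10.3 and Bbs7 at 34.3 RPKM. IFT-B had a median of 8.85 RPKM, between Ift88 at 4.37 and Ift20, which also works in traffic from the Golgi, at 36.1 RPKM. IFT-A lay at a median of 4.999 RPKM, between Tulp3, which brings membrane receptors to IFT-A, at 1.14 and Ift43 at 14.7 RPKM. Among the motors, with a median of 10.5 RPKM, the kinesin Kif17 was lowest at 1.15 and Kif3b, a kinesin-II subunit, highest at 24.2 RPKM. The assembly and recruitment genes ran from the chaperonin-like Bbs10 at 3.93 RPKM to Arl6, the small GTPase that draws the BBSome to membranes, at 89.6 RPKM, the highest of all members. These levels are per length of all annotated exons of a gene. How far that makes them comparable between genes was not tested.

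**Figure D2:**
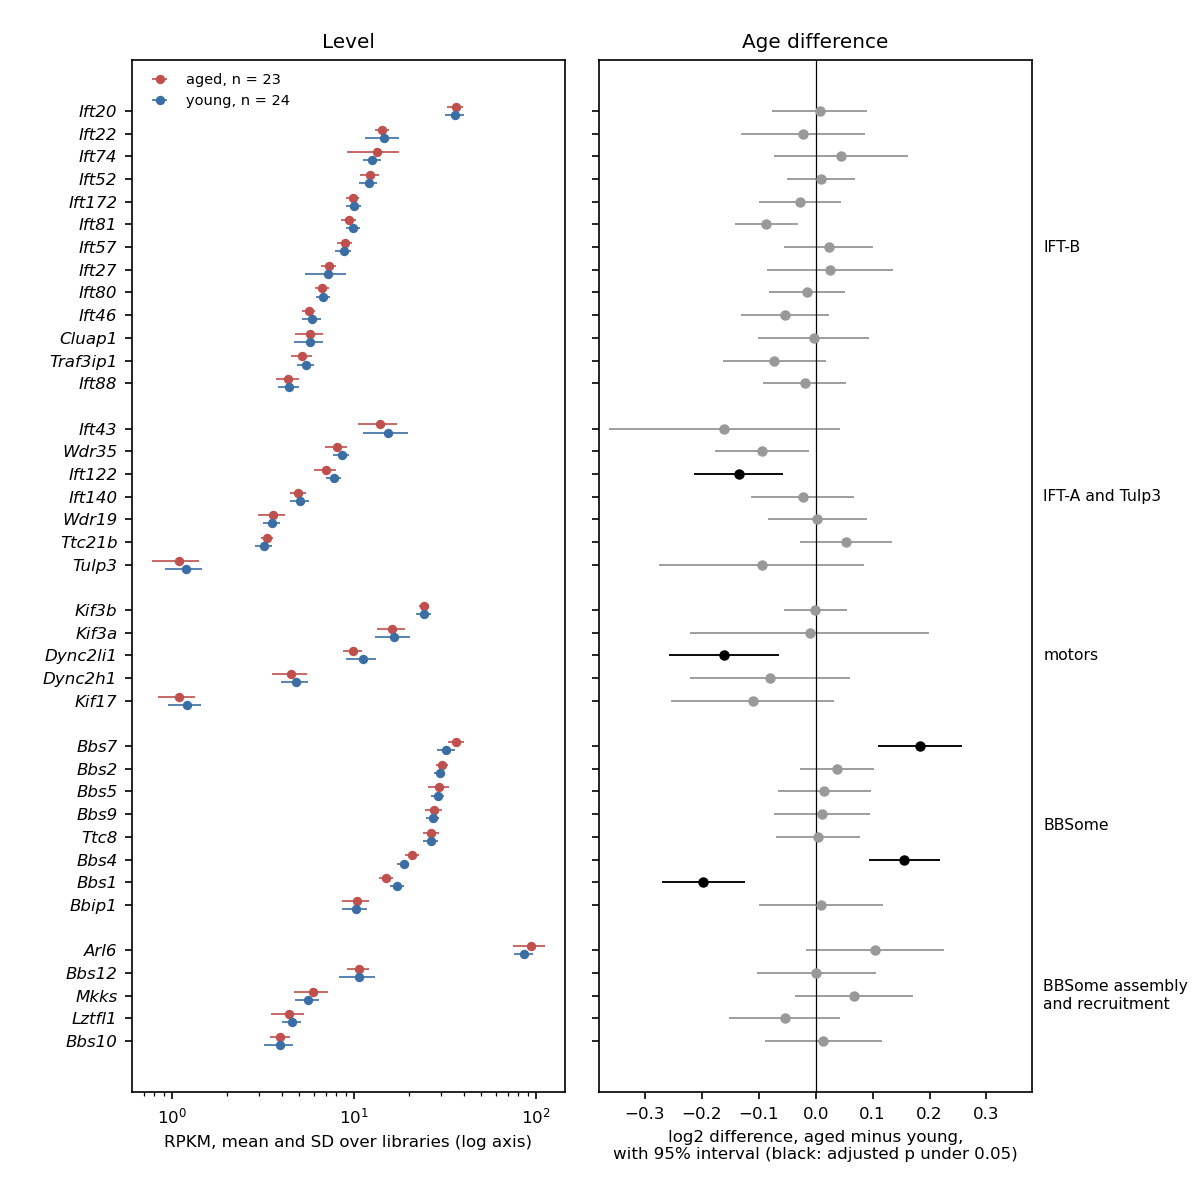
The left panel gives the mean RPKM and SD of each member in 23 aged (red) and 24 young (blue) libraries on a log axis, grouped by complex. The right panel gives the age difference in log2(RPKM + 0.5) with its 95% interval, with the 5 members that passed the test in black: Bbs7 and Bbs4 to the right of 0, and Bbs1, Ift122 and Dync2li1 to the left.

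The first comparison asked which members differed between 20-month and 6-week retinas over all times. Bbs7 and Bbs4 rose in aged retinas and Bbs1 fell, so that 3 subunits of the same 8-part complex changed in 2 directions, while Ift122 and Dync2li1 of the retrograde machinery fell. By limma on log2(RPKM + 0.5), with time as a factor and p adjusted over all 15321 genes, 2 of 38 members were higher (background 2.41% of tested genes) and 3 lower (background 1.83%), 5 in either direction (background 4.24%). Median-ratio scaling and quantile normalization called 634 and 743 of all tested genes for age, against 649 without them. Under both settings the split of the members was 2 higher and 1 lower, since Ift122 and Dync2li1 lost their call. Without the pair of outlying libraries 2 were higher (background 7.24%) and 7 lower (background 9.29%), the same 5 with Ift81 (-0.10), Wdr35 (-0.14), Dync2h1 (-0.17) and Lztfl1 (-0.11). None of the 38 passed with a fold over 1.5, which 0.49% of tested genes did, and none did without the pair (background 0.548%). The median age difference of the members was -0.002 and that of all tested genes -0.019. The median size of the difference, without its sign, was 0.032 in members and 0.063 in all tested genes. Fold changes on this scale understate the change of low genes.

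Bbs7, part of the BBSome core that the chaperonin complex assembles, had 30.6, 37.0 and 45.0 RPKM as lowest, median and highest value in aged libraries, against 23.9, 33.2 and 37.4 RPKM in young libraries. The groups overlapped, with 17 of 23 aged libraries above the young median. The mean was 36.6 ± 3.75 RPKM in aged (SD, n = 23) and 32.2 ± 3.54 RPKM in young (SD, n = 24), and the difference was 0.18 log2 units (SE 0.04; limma, adjusted p = 0.00078).

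Bbs4, which links the BBSome to the material around centrioles, had 17.4, 20.9 and 26.1 RPKM in aged libraries, against 15.5, 18.9 and 20.97 RPKM in young libraries. Of the 23 aged libraries 21 were above the young median. The mean was 20.9 ± 1.79 RPKM in aged (SD, n = 23) and 18.7 ± 1.42 RPKM in young (SD, n = 24), a difference of 0.16 log2 units (SE 0.03; limma, adjusted p = 0.000781). Exons of Bbs4 share 3.21% of their bases with Adpgk on the other strand in GENCODE M21, and whether counting used strand is not given in the sources used here.

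Bbs1, the subunit that binds Arl6, went the other way, with 12.5, 15.01 and 17.03 RPKM in aged libraries, against 13.7, 17.2 and 21.1 RPKM in young libraries. All 23 aged libraries were below the young median, although the ranges overlapped. The mean was 15.03 ± 1.32 RPKM in aged (SD, n = 23) and 17.3 ± 1.54 RPKM in young (SD, n = 24), and Bbs1 fell by 0.20 log2 units (SE 0.04; limma, adjusted p = 0.000232). Bbs7, Bbs4 and Bbs1 kept their calls in all 47 fits that left out 1 library, where the largest adjusted p was 0.00159, 0.00158 and 0.000591 in this order.

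The other 5 BBSome subunits, Bbs2, Bbs5, Bbs9, Ttc8 and Bbip1, did not pass. Bbs2 was at 30.5 ± 2.19 RPKM in aged and 29.7 ± 2.13 RPKM in young libraries (SD, n = 23 and 24), and Ttc8 at 26.6 ± 2.76 RPKM in aged and 26.4 ± 2.39 RPKM in young. All 5 had differences above 0 but small next to their spread.

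**Figure D3:**
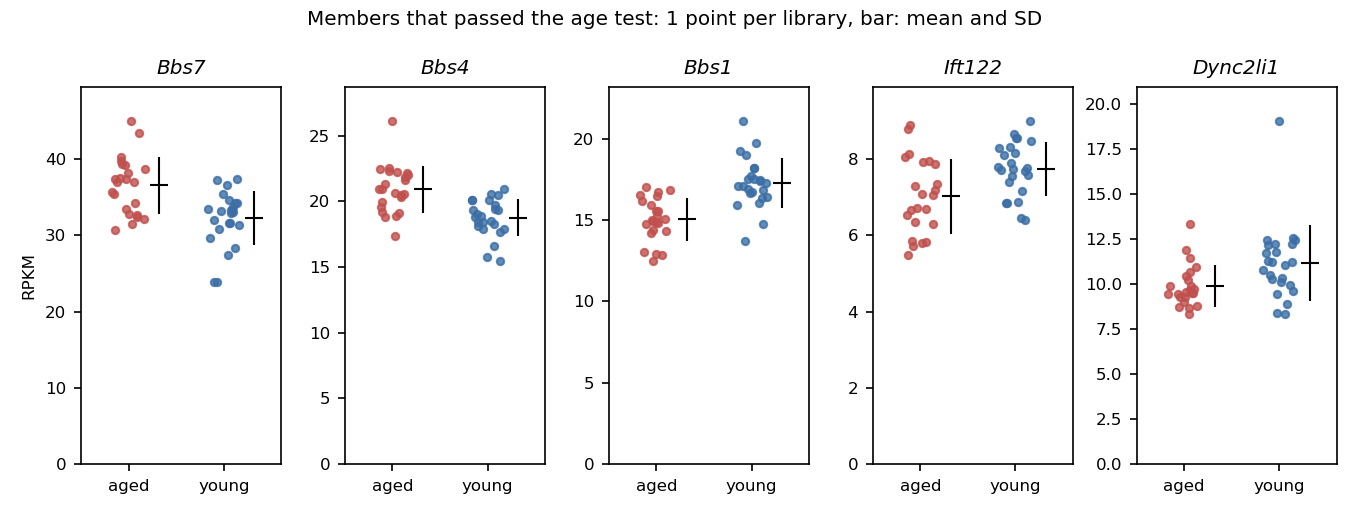
Each point is 1 library (23 aged in red, 24 young in blue) and the bar is the mean with SD, on linear RPKM axes that start at 0, for the 5 members that passed the age test. Bbs7 and Bbs4 lie higher in aged libraries and Bbs1, Ift122 and Dync2li1 lower, with overlap in each panel, and 1 young library, ZT10 replicate 4, stands high for Dync2li1 at 19.0 RPKM.

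A ratio within a library sets a gene that rose beside the one that fell. The ratio Bbs7 over Bbs1 was 1.99, 2.40 and 2.97 as lowest, median and highest in aged libraries, against 1.14, 1.94 and 2.16 in young libraries. Of the 23 aged libraries 19 were above the highest young one, and all 23 were above the young median. Bbs4 over Bbs1 was 1.15, 1.36 and 1.78 in aged libraries, against 0.868, 1.08 and 1.29 in young libraries, again with 19 of 23 aged libraries above the highest young one. Bbs7 over Bbs4, the genes that rose together, was 1.57, 1.74 and 1.95 in aged and 1.27, 1.73 and 2.01 in young libraries, with full overlap. The ratios were formed after the age differences were seen and are a description with no test. A ratio shows unequal change and does not say which gene changed.

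**Figure D4:**
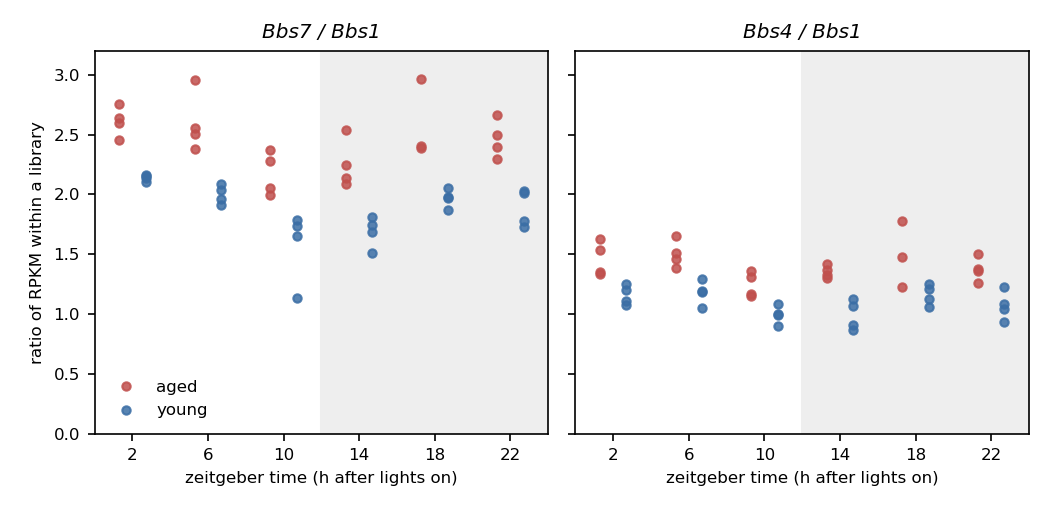
Ratios of RPKM within each library, Bbs7 over Bbs1 (left) and Bbs4 over Bbs1 (right), are plotted against zeitgeber time, with aged libraries in red, young in blue and the dark phase in grey. Aged points lie between 1.99 and 2.97 on the left, where the highest young point is 2.16, and between 1.15 and 1.78 on the right, where the highest young point is 1.29.

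Of the 7 IFT-A genes 1 fell and 6 did not pass. Ift122, a core IFT-A subunit, had 5.49, 7.07 and 8.89 RPKM as lowest, median and highest in aged libraries, against 6.42, 7.75 and 9.002 RPKM in young libraries. The aged values reached lower but overlapped most of the young range, with 16 of 23 below the young median. Ift122 averaged 7.02 ± 0.986 RPKM in aged (SD, n = 23) and 7.74 ± 0.708 RPKM in young (SD, n = 24), and it fell by 0.14 log2 units (SE 0.04; limma, adjusted p = 0.0333). The other IFT-A genes, Ift140, Wdr19, Wdr35, Ttc21b, Ift43 and Tulp3, had differences from -0.16 for Ift43 to 0.05 for Ttc21b. With all libraries Ift43 was among the least steady of all members, at 13.8 ± 3.31 RPKM in aged and 15.5 ± 4.31 RPKM in young libraries. In aged ZT6 replicate 3 it was at 4.14 RPKM, against 13.1, 13.7 and 13.7 RPKM in the other libraries of that group. In young ZT10 replicate 4 it was 1.48 log2 units above the other libraries of that group. Without this outlying pair the difference of Ift43 was -0.03 (SE 0.05, limma, adjusted p = 0.712). Leaving out 1 library kept the call of Ift122 in 39 of 47 fits. It was lost (limma, adjusted p) without aged ZT2 replicate 1 (0.0519), ZT6 replicate 2 (0.0537), ZT10 replicate 2 (0.0535) or ZT18 replicates 2 (0.0524) or 3 (0.0614), and without young ZT2 replicate 1 (0.0518) or ZT6 replicates 1 (0.0566) or 2 (0.0586).

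Among the 5 motor genes all differences were below 0 and 1 passed. Dync2li1, the light intermediate chain that steadies dynein-2, had 8.35, 9.56 and 13.4 RPKM in aged libraries, against 8.36, 11.1 and 19.0 RPKM in young libraries. The highest young value is that of ZT10 replicate 4, where the other libraries of the group were at 12.2, 11.1 and 11.3 RPKM. Dync2li1 averaged 9.89 ± 1.16 RPKM in aged (SD, n = 23) and 11.2 ± 2.11 RPKM in young (SD, n = 24), and it fell by 0.16 log2 units (SE 0.05; limma, adjusted p = 0.0404). The call was kept in 24 of 47 fits that left out 1 library, with a largest adjusted p of 0.0652 by limma, and in the fit without the outlying pair (-0.13, adjusted p = 0.0182). The heavy chain of the same motor, Dync2h1, was at 4.52 ± 0.974 RPKM in aged and 4.78 ± 0.806 RPKM in young libraries and did not pass with all libraries (limma, adjusted p over 0.05).

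None of the 13 IFT-B genes passed the age test (limma; 1 at an unadjusted p under 0.05; 0 also by limma voom on recovered reads). The differences ran from -0.09 to 0.04 log2 units. Ift172, which turns trains round at the tip, was at 9.82 ± 0.79 RPKM in aged and 10.01 ± 0.952 RPKM in young libraries (SD, n = 23 and 24). Ift27, a small GTPase that helps the BBSome leave the cilium, was at 7.27 ± 0.708 RPKM in aged and 7.24 ± 1.86 RPKM in young libraries. The gene with a small unadjusted p was Ift81, which holds tubulin together with Ift74, at 7.78, 9.45 and 11.1 RPKM in aged and 8.39, 10.03 and 11.3 RPKM in young libraries. Its difference was -0.09 log2 units (SE 0.03; limma, adjusted p = 0.0595) and it was below 0 at all 6 times. Without the outlying pair it was -0.10 (SE 0.02; limma, adjusted p = 0.0021). Of the 5 assembly and recruitment genes none passed either (limma; 0 at an unadjusted p under 0.05), with differences from -0.05 for Lztfl1, which works with Ift27 in BBSome exit, to 0.10 for Arl6. Arl6 was at 93.4 ± 18.8 RPKM in aged and 85.9 ± 10.5 RPKM in young libraries.

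The second comparison set the ages side by side at each time, with 4 libraries per group (3 in aged ZT18). No member passed at any time by limma over all tested genes, where the background was 0.144% of genes at ZT2, 3.12% at ZT6, then 0.496% at ZT10, 0.248% at ZT14, then 0.255% at ZT18, with 0.17% at ZT22. At an unadjusted p under 0.05 there were 2, 6, 4, 5, 2 and 5 members in the same order of times, where 4.47, 19.8, 12.6, 5.46, 3.58 and 4.13% of tested genes were, and limma voom on recovered reads called none. Without the outlying pair 1 member passed, Dync2h1 at ZT22 (-0.34, SE 0.08; limma, adjusted p = 0.0447; background 0.757%), and none at the other times (0.751, 1.38, 0.587, 0.914 and 0.822%). At an unadjusted p under 0.05 there were then 3, 4, 6, 9, 3 and 8 members, against 12.6, 11.8, 7.24, 12.9, 8.54 and 12.5% of tested genes. All 6 members with a small unadjusted p at ZT6 were lower in aged retinas, as were 81.1% of the tested genes with one, and 4 of 5 at ZT14 were higher, as were 76.3% of those genes.

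Of the 5 called members 4 had the same direction at all times and Ift122 did not. Bbs1 was lower in aged retinas at 6 of 6 times, with differences between -0.26 at ZT10 and -0.13 at ZT22 (log2 units). Bbs7 was higher at 6 of 6 times, between 0.13 at ZT2 and 0.24 at ZT22. Bbs4 was higher at 6 of 6 times, between 0.06 at ZT10 and 0.22 at ZT14. At ZT22 Bbs7 had 39.7, 35.6, 38.6 and 39.4 RPKM in the aged libraries, against 28.3, 33.2, 33.7 and 34.2 RPKM in the young libraries, so the groups did not overlap. At ZT10 Bbs1 had 14.3, 14.9, 16.5 and 16.5 RPKM in the aged libraries, against 17.1, 17.7, 19.0 and 21.1 RPKM in the young libraries, also with no overlap. The highest of these, 21.1 RPKM, is from young ZT10 replicate 4 of the outlying pair, and the other young values were also above all aged ones. These were the times with the largest difference of Bbs7 and of Bbs1, and neither passed there (limma, adjusted p = 0.818 and 0.292). At ZT2 and ZT14 the aged and young values of Bbs7 overlapped. Ift122 was lower at 5 of 6 times, by up to -0.28 at ZT6, and 0.03 higher at ZT22. Dync2li1 was lower at 6 of 6 times, from -0.31 at ZT10, where young replicate 4 of the outlying pair was at 19.0 RPKM, to -0.01 at ZT14. No member passed the test of whether the age difference varied over the day (limma F test; background 0%, 0 of all tested genes; 1 member and 735 genes at an unadjusted p under 0.05; 0 members by limma voom and 0 without the pair). That member was Bbs5, with a difference of -0.24 at ZT6 and an adjusted p of 0.838 for the interaction by limma. At ZT6 Bbs5 was at 21.5 RPKM in aged replicate 3 of the outlying pair and at 29.5, 27 and 29 RPKM in the other aged libraries.

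The third question was which members cycled over 24 h at each age. Ift52, Ift88, Cluap1, Bbs7 and Mkks cycled in both ages, with 3 IFT-B genes at their highest in the middle of the light phase, Bbs7 around lights on and Mkks in the dark. By a limma F test of a 24 h wave (cosine with sine), adjusted over all tested genes, 8 of 38 members were rhythmic in aged retinas (background 14.4%) and 11 of 38 in young retinas (background 19.7%), 5 in both (background 7.56%). Without the outlying pair there were 13 in aged (background 27.3%), 20 in young (background 34%) and 9 in both (background 19.4%). In young retinas 5 members were called under median-ratio scaling and 7 under quantile normalization. Of all 15321 tested genes 2491 and 2592 were then rhythmic in young retinas, against 3024 without such scaling. The cycles were shallow, with fitted peak-to-trough folds of 1.197 to 1.49 over the 8 in aged and 1.17 to 1.47 over the 11 in young retinas. The median amplitude over all 38 members was 0.114 log2 units in aged and 0.115 in young, where that of all tested genes was 0.146 and 0.125.

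Ift52, which holds the IFT-B core together, had the smallest adjusted p of all members in aged retinas. At ZT6 it was at 14.03, 12.8, 14.4 and 14.8 RPKM in aged and 13.3, 14.1, 13.4 and 13.1 RPKM in young libraries. At ZT18 it was at 9.29, 10.1 and 10.8 RPKM in aged and 11.5, 10.6, 10.1 and 12.2 RPKM in young libraries, so that all libraries of ZT6 were above all of ZT18 at either age. Its amplitude was 0.22 log2 units (SE 0.03) with a peak at 7.504 h (SE 0.48) in aged (limma, adjusted p = 4.76e-05) and 0.16 (SE 0.03) with a peak at 6.76 h (SE 0.75) in young (limma, adjusted p = 0.00234).

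Ift88, the IFT-B subunit whose loss halts assembly of cilia in mice, had the smallest adjusted p in young retinas. At ZT6 it was at 4.79, 4.64, 6.03 and 4.51 RPKM in aged and 4.89, 5.38, 5.01 and 4.996 RPKM in young libraries. At ZT18 it was at 3.31, 3.89 and 4.35 RPKM in aged and 3.54, 3.46, 3.76 and 3.44 RPKM in young libraries, again with no overlap between the times at either age. The peak was at 7.504 h (SE 0.998) in aged (amplitude 0.17; limma, adjusted p = 0.0366) and at 7.06 h (SE 0.55) in young (amplitude 0.21; limma, adjusted p = 0.000107). The aged call was lost on leaving out 8 of 23 aged libraries in turn (limma, adjusted p up to 0.0834), and without the outlying pair it held with an amplitude of 0.14. Cluap1, another IFT-B subunit, peaked at 7.54 h in aged retinas (amplitude 0.22, limma, adjusted p = 0.0236). In young retinas Cluap1 peaked at 6.44 h (amplitude 0.22, limma, adjusted p = 0.00408). Its highest value, 9.37 RPKM, came from young ZT10 replicate 4. In GENCODE M21 Cluap1 shares 22.4% of its exon bases with a gene model on the same strand, so the split of its reads is uncertain, and that model averaged 0.0235 RPKM.

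Ift81 cycled in aged retinas, with 10.1, 10.7, 11.1 and 10.7 RPKM at ZT6 and 7.78, 8.29 and 8.08 RPKM at ZT18 in aged libraries, and 10.6, 11.3, 11.1 and 10.5 RPKM at ZT6 and 9.20, 10.6, 9.34 and 8.80 RPKM at ZT18 in young libraries. The aged values at ZT18 were below all young ones, while those at ZT6 overlapped them. The amplitude was 0.18 log2 units in aged (SE 0.02; limma, adjusted p = 9.17e-05) and 0.10 in young (SE 0.03; limma, adjusted p = 0.0616), and the difference between them did not pass (limma F test, unadjusted p = 0.113, adjusted p = 0.606). Ift74, its partner, cycled in young retinas (amplitude 0.18, peak 2.78 h; limma, adjusted p = 0.000626) and had an amplitude of 0.24 in aged retinas (limma, adjusted p = 0.0949). Without the outlying pair Ift74 passed in aged retinas too, with an amplitude of 0.16 (limma, adjusted p = 0.0111). Ift81 then passed in young retinas too, with an amplitude of 0.11 and a peak at 6.06 h (limma, adjusted p = 0.00821). All 4 rhythmic IFT-B genes in aged and all 4 in young retinas peaked in the light, and without the pair 5 of 6 in aged and 8 of 8 in young did.

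**Figure D5:**
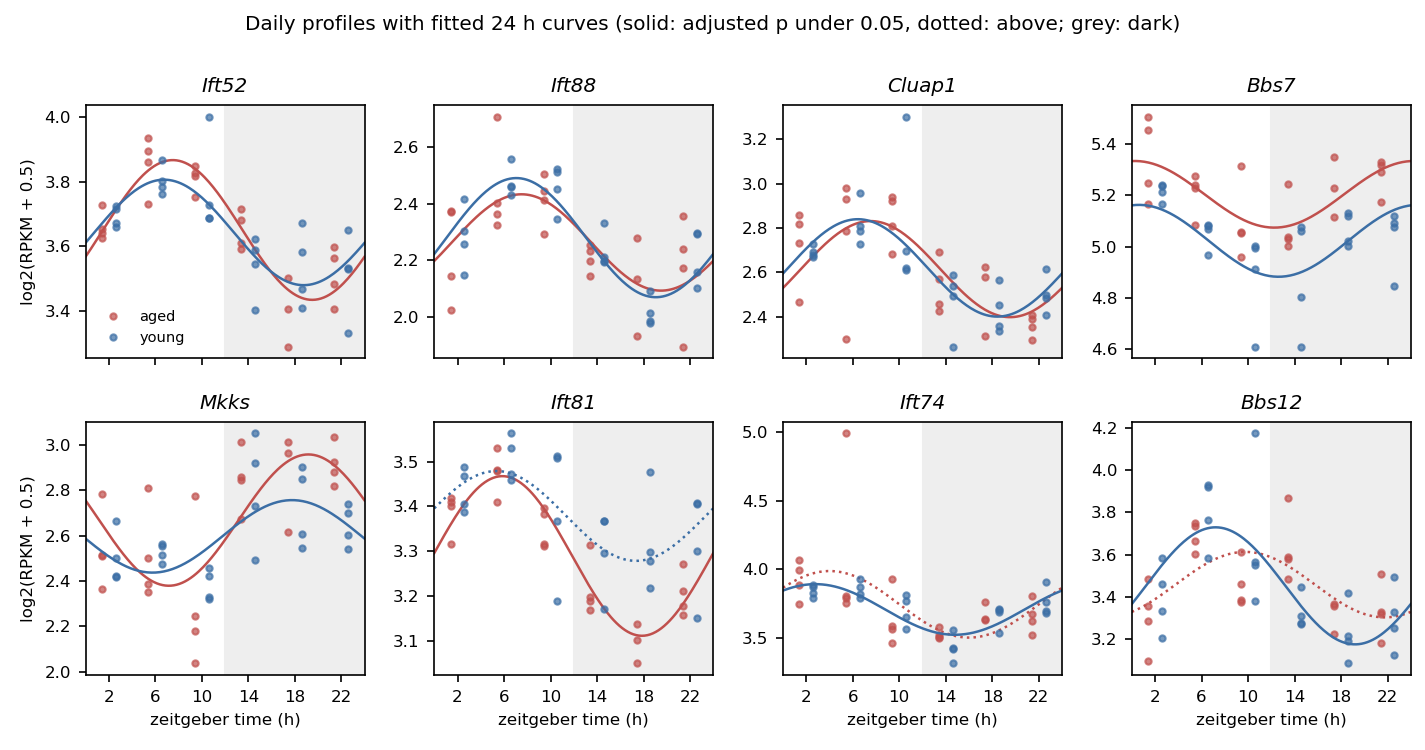
Values of log2(RPKM + 0.5) are plotted against zeitgeber time for 8 members, with 1 point per library (aged red, young blue, moved slightly apart on the axis), fitted 24 h curves and the dark phase in grey; axes do not start at 0. Ift52, Ift88 and Cluap1 peak between 6.44 and 7.54 h at both ages, Bbs7 peaks near lights on with the aged curve above the young one, and Mkks peaks in the dark.

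Among the BBSome genes Bbs7 passed in both ages and Bbs5 and Ttc8 in 1 each, with and without the outlying pair. Bbs7 was at 35.4, 37.5, 43.4 and 45.0 RPKM at ZT2 and 37.4, 31.5, 32.4 and 32.1 RPKM at ZT14 in aged libraries. In young libraries it was at 37.2, 37.4, 36.6 and 35.4 RPKM at ZT2 and 27.5, 23.9, 33.3 and 32.9 RPKM at ZT14. The ZT2 values were above all ZT14 values in young retinas, and in aged retinas 1 ZT14 library reached into their range. The peak was at 0.26 h (SE 1.08) in aged (amplitude 0.13; limma, adjusted p = 0.0378) and at 0.62 h (SE 1.1) in young (amplitude 0.14; limma, adjusted p = 0.0415), and the call was lost on leaving out 11 of 23 aged or 14 of 24 young libraries in turn. Bbs5, a subunit that binds membrane lipids, passed in aged retinas with a peak at 18.90 h (amplitude 0.17; limma, adjusted p = 0.0386), a call lost on leaving out 10 of 23 aged libraries in turn (up to 0.101). Ttc8 passed in young retinas with a peak at 7.91 h (amplitude 0.11; limma, adjusted p = 0.0317), a call lost on leaving out 7 of 24 young libraries in turn (up to 0.0708).

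Among the members called rhythmic with all libraries, the widest fitted folds were those of Mkks in aged and Bbs12 in young retinas, both chaperonin-like genes of BBSome assembly. Mkks, which starts the assembly, was at 4.03, 3.60, 6.34 and 4.24 RPKM at ZT10 and 7.09, 6.87, 6.56 and 7.69 RPKM at ZT22 in aged libraries. In young libraries it was at 4.53, 4.85, 4.50 and 4.99 RPKM at ZT10 and 5.58, 5.32, 6.18 and 5.99 RPKM at ZT22. The ZT22 values were above all of ZT10 at either age. The fitted fold between peak and trough was 1.49 in aged, with a peak at 19.17 h (limma, adjusted p = 0.0107), and 1.25 in young, with a peak at 17.77 h (limma, adjusted p = 0.043). In young retinas the call was lost with the replicate number as a block (limma, adjusted p = 0.0529) and on leaving out 14 of 24 young libraries in turn (up to 0.0943). Exons of Mkks share 29.3% of their bases with a model on the same strand that was at 0 RPKM here and 5.33% with Slx4ip on the other strand, so its reads are uncertain in part.

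Bbs12, another chaperonin-like gene, cycled in young retinas with a fold of 1.47 and a peak at 7.21 h (limma, adjusted p = 0.0027), thus in the light, and had an amplitude of 0.15 in aged retinas (limma, adjusted p = 0.0773). At ZT6 it was at 12.9, 11.6, 12.8 and 12.2 RPKM in aged and 14.7, 13.1, 14.6 and 11.5 RPKM in young libraries. At ZT18 it was at 9.82, 9.76 and 8.84 RPKM in aged and 10.2, 8.63, 8.77 and 7.99 RPKM in young libraries, below all of ZT6 at either age. Arl6 passed in young retinas with a peak at 8.50 h (amplitude 0.15; limma, adjusted p = 0.0399), and this call was lost on leaving out 8 of 24 young libraries in turn. Without the outlying pair Mkks remained the 1 assembly gene called in aged retinas, and all 5 passed in young retinas, Lztfl1 and Bbs10 included. Of the motors, Kif3b peaked at 21.48 h (amplitude 0.13; limma, adjusted p = 0.00739) and Dync2li1 at 5.77 h (amplitude 0.20; limma, adjusted p = 0.0262) in young retinas, and none passed in aged retinas. Without the pair these were again the 2 motors called in young retinas, and Dync2h1 passed in aged retinas. Of the IFT-A genes 1 passed with all libraries, Ift122 in aged retinas, with a peak at 20.44 h (amplitude 0.17; limma, adjusted p = 0.0328), and its adjusted p in young retinas was 0.154 by limma. The aged call of Ift122 was lost on leaving out 7 of 23 aged libraries in turn (up to 0.0659). Without the pair 3 IFT-A genes passed in aged retinas, Ift43, Ift122 and Wdr19, and 3 in young retinas, Ift43, Wdr19 and Wdr35. Of the rhythmic members 5 peaked in the light and 3 in the dark in aged retinas, and 9 in the light and 2 in the dark in young retinas, where 57.3% of all rhythmic genes in aged and 76.3% in young peaked in the light. Without the pair 8 peaked in the light and 5 in the dark in aged retinas (64.3% of all rhythmic genes in the light), and 17 in the light and 3 in the dark in young retinas (76.6%).

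The last comparison tested whether rhythms differed between the ages. No member passed (limma F test of the age by cosine and sine terms; 0 by limma voom and 0 without the pair), with a background of 0.00653%, that is 1 of all tested genes. At an unadjusted p under 0.05 there were 1 of 38 members and 1187 of 15321 tested genes. The smallest unadjusted p among members were those of Bbs5 (0.0281), Bbs12 (0.0624), Traf3ip1 (0.076) and Ift46 (0.094), all with an adjusted p of 0.606 by limma. For the 5 members rhythmic in both ages the peak in aged minus that in young was 0.74 h for Ift52, 0.44 h for Ift88, 1.098 h for Cluap1, -0.36 h for Bbs7 and 1.40 h for Mkks, each smaller than the sum of the errors of its peak times. A gene that passed in 1 age only is therefore not shown to cycle differently in the other.

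Other genes of ciliary transport were taken from lists chosen by name, and 3 of them differed with age, all lower in aged retinas (background 4.24% of tested genes in either direction). Among 17 tested further IFT, motor and trafficking genes 0 were higher and 1 lower (limma), Dync2i1, an intermediate chain of dynein-2. It was at 5.58 ± 0.603 RPKM in aged and 6.38 ± 0.834 RPKM in young libraries (SD, n = 23 and 24), a difference of -0.18 log2 units (SE 0.04; limma, adjusted p = 0.00314). Among 20 tested genes of the transition zone, the gate at the base of the cilium, 0 were higher and 2 lower. Tctn3 was at 6.93 ± 0.763 RPKM in aged and 7.71 ± 0.739 RPKM in young (-0.15; limma, adjusted p = 0.011), and Tctn1 at 2.01 ± 0.32 RPKM in aged and 2.37 ± 0.517 RPKM in young (-0.19; limma, adjusted p = 0.0173). None of 15 tested cargo carriers and axoneme genes of photoreceptors and none of 6 tested RFX and related regulators passed (limma). At an unadjusted p under 0.05 there were 1 of the 17, 8 of the 20 (5 of them lower in aged), 1 of the 15 and 1 of the 6, where 15.7% of all tested genes were. Without the outlying pair 2 of the 17 were higher and 1 lower, 2 of the 20 higher and 4 lower, 2 of the 15 lower and 1 of the 6 lower (background 7.24% higher and 9.29% lower). Rhythmic in aged and in young retinas were 2 and 4 of the 17, 5 and 9 of the 20, 0 and 4 of the 15 and 0 and 2 of the 6 (background 14.4% in aged and 19.7% in young), and without the pair they were 6 and 8, 6 and 13, 3 and 7 and 1 and 3 (background 27.3% and 34%). The median differences of these lists were -0.031, -0.056, -0.049 and -0.010 log2 units, where that of all tested genes was -0.019.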

How the data were processed

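Polyadenylated RNA of retinas was sequenced, per the labels' protocols. The authors deposited RPKM values with 1 column per library. HISAT2 2.2.1, Subread 2.0.6 and the build GRCm39 are named in the submitters' processing notes, which state no role for any of them. The strand setting, the filters and the annotation release were not given in the sources used here. In the table, 47 columns matched a sample and 1 further column matched none and was not used. Gene symbols were found for 51884 of 57180 identifiers in GENCODE M21, which belongs to an earlier build and served for names, exon lengths and exon overlaps only. Promoter windows came from RefSeq (GRCm38.p6).

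Low RPKM values come in steps of 1 read, from which reads and library totals were recovered: with these exon lengths 32779 of 34957 genes above 0 (93.77%) gave reads within 0.01 of whole numbers in all libraries. Exon lengths of 37 members came from GENCODE M21 and that of 1, Ift80, was searched for.

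RPKM is not a count, so limma 3.58.1 (R 4.3.3; trended eBayes; Benjamini-Hochberg adjustment over 15321 genes) was fitted to log2(RPKM + 0.5) of genes that reached 0.5 RPKM in 12 or more libraries. Calls are at an adjusted p under 0.05. Age was tested with time as a factor, at each time from 12 group means, and as an age by time interaction. Rhythm was tested with 24 h cosine and sine terms in each age, and their difference with age by cosine and sine terms. Amplitudes and peaks have delta-method errors. Tables were summarised with Python 3.11.15 and pandas 2.3.3. The fits were checked on simulated data. P-values measure the spread between mice, as the labels name 1 eye per mouse.

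Members, gene lists and tests were chosen with earlier results of these data known. Values are given for members called in a test (up to 12 per test, or the 4 smallest p where fewer than 4 passed), for the highest and lowest member of each group and for up to 3 called genes per further list. At single times the text gives those of the 4 members that carry a result of the overall test. Replicate numbers were not used to pair the samples, apart from the replicate block below. Over 23 pairs the deviations of libraries with the same number correlated between -0.486 and 0.428, and 10 pairs were over 0.1. No reference value was formed, so this does not settle whether numbers pair the samples. Alternatives were another pseudocount, scaling, filter, rhythm test or library weight, the replicate block, and fits that left out libraries. Limma voom on the recovered reads was added after seeing the data.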

Additional observations from a re-analysis of the deposited data

Results flagged for a closer look

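For the 16 members named by a test and the median of all members, 187 groups of 4 libraries were screened for a single value far from the others, and 13 stood out, where chance flags about 1 in 20 groups. Of these, 5 came from the pair of outlying libraries. In young ZT10 replicate 4 Dync2li1 was at 19.0 RPKM (others 11.1 to 12.2), Ift52 at 15.5 RPKM (others 12.4 to 12.7) and Cluap1 at 9.37 RPKM (others 5.61 to 5.99). In aged ZT6 replicate 3 Ift74 was at 31.4 RPKM (others 13.0 to 13.5) and Arl6 at 155 RPKM (others 89.0 to 96.6).

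The other 8 each came from a different library. Bbs7 was at 37.4 RPKM in aged ZT14 replicate 1 (others 31.5 to 32.4), at 30.8 RPKM in young ZT6 replicate 4 (others 33.1 to 33.4) and at 28.3 RPKM in young ZT22 replicate 1 (others 33.2 to 34.2). Bbs4 was at 19.6 RPKM in aged ZT22 replicate 2 (others 21.9 to 22.2). Ift88 was at 4.53 RPKM in young ZT14 replicate 1 (others 4.08 to 4.13), Ift74 at 11.1 RPKM in young ZT18 replicate 1 (others 12.4 to 12.6) and Ttc8 at 26.9 RPKM in young ZT2 replicate 4 (others 24.6 to 24.8). The median level of the 38 members, as a log2 difference from each gene's own mean, was 0.0816 in young ZT10 replicate 2 (others 0.0125 to 0.024).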

How the results depend on the processing

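Bbs1, Bbs7 and Bbs4 kept direction and call under all settings run, and the count of members higher in aged retinas was 2 in all of them. The count of members lower, 3, was 1 without a filter, under median-ratio scaling and under quantile normalization, 8 with array weights and 7 without the outlying pair (aged ZT6 replicate 3, young ZT10 replicate 4). Members rhythmic in aged retinas, 8, became 4 without a filter and with time as a factor, 17 with array weights and 13 without the pair. Members rhythmic in young retinas, 11, became 7 without a filter and under quantile normalization, 5 under median-ratio scaling, 6 with time as a factor, 22 with array weights and 20 without the pair. Calls over all tested genes rose with array weights and without the pair. For age they went from 649 to 2397 and 2533 genes in this order. Rhythmic genes went from 2207 to 6023 and 4188 in aged and from 3024 to 7069 and 5207 in young retinas. Young rhythmic genes were 2689 without a filter, 2592 under quantile normalization and 2491 under median-ratio scaling. With array weights 5 members passed for age at ZT2, 2 at ZT6, 4 at ZT10, 11 at ZT18, 4 at ZT22 and 1 in the interaction, and without the pair 1 at ZT22. For single times and the interaction, counts over all genes with array weights are not given here. Leaving out the filter adds genes both to the adjustment and to the trended eBayes fit. The cause of these changes in counts was not tested. Whether replicate numbers pair the samples was not settled (17 of 47 libraries correlated best with their own number). The replicate block gave the same 5 age calls and took the young rhythm of Mkks (adjusted p = 0.0529 by limma).

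Leaving out 1 library gave 1 to 5 members lower: 5 without aged ZT6 replicate 3 or young ZT10 replicate 4, and 1 without the libraries named beside Ift122. It gave 0 to 2 for age at ZT6 (2 without aged ZT6 replicate 4, 1 without aged ZT6 replicate 2 or young ZT10 replicate 4). Rhythmic members ran from 4 to 13 in aged (13 without ZT6 replicate 3, 4 without ZT10 replicate 2 or ZT22 replicate 3, 5 without ZT10 replicate 4, ZT18 replicate 2 or ZT22 replicates 1 or 4) and from 7 (without ZT6 replicate 1) to 20 (without ZT10 replicate 4) in young. The median difference of the members ran from -0.012 to 0.001. Over all tested genes 846 passed for age without aged ZT6 replicate 3 and 1518 without young ZT10 replicate 4, against 649 with all libraries. Rhythmic genes were 4188 in aged without ZT6 replicate 3 and 1814 without ZT10 replicate 2. In young they were 5207 without ZT10 replicate 4 and 2687 without ZT6 replicate 1. Limma voom gave 9 rhythmic members in aged and 12 in young, where 2177 and 2878 genes were rhythmic.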
